A study of Homo sapiens with 4 samples.

Results

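The 53 genes described here act at the G1/S boundary and in DNA replication: they license origins, start and run the replication fork, supply nucleotides and restore chromatin behind it. They were taken by symbol from the deposited expression table, where all 53 were found among 58825 gene rows. The cells were HaCaT, an established line of human keratinocytes, grown in MEPICF500 medium with 1.2 mM calcium, an ion that pushes keratinocytes towards differentiation. Both groups received lentivirus: the control libraries are labelled shNC, and the knockdown libraries express a hairpin that silences lnc-DC, a long noncoding RNA (shlnc-DC). Each group has 2 libraries, called biological replicates in the labels, with no statement on whether they came from separate transductions or how many hairpins were used, so a p-value here reflects no more than the scatter of 4 libraries, which may be technical. The series was made to describe the expression signature of differentiating keratinocytes when lnc-DC is silenced. Values are FPKM, fragments per unit of transcript length and of mapped fragments.

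The targeted gene, WFDC21P, stood at 2.15 and 2.76 FPKM in control and 0.09 and 0.29 FPKM in knockdown libraries (limma adjusted p = 0.0715). Read totals are unknown from the table, and each library listed 22351 to 22780 genes above 0. Mitochondrially encoded transcripts took 41.2% and 41.9% of all FPKM in control and 28.1% and 26.8% in knockdown libraries. Of 11 keratinocyte markers 8 reached 1 FPKM in every library, KRT5 among them, whereas KRT14, KRT16 and KRT17 did not. All 5 markers of simple epithelia reached that level in every library, and none of 6 fibroblast markers did. So did 1 of 5 melanocyte markers (MITF), 1 of 5 leukocyte markers (CD14) and 1 of 3 endothelial markers (CDH5). Of 6 markers of differentiated keratinocytes 2 did, KRT10 and IVL, while KRT1 and LOR were at 0 in every library. The summed level of the keratinocyte markers was 688 and 738 FPKM in control and 385 and 431 FPKM in knockdown libraries. Much of that sum came from KRT5 (270.10 and 304.42 against 123.71 and 156.10 FPKM) and SFN (292.48 and 318.00 against 167.28 and 173.59 FPKM). TP63, KRT16 and PERP overlapped between groups. For the simple epithelial markers the sum was 1081 and 1159 FPKM in control and 918 and 902 FPKM in knockdown libraries. The part of these levels in the results below was not tested.

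Replication is prepared in G1, when the origin recognition complex, CDC6 and CDT1 load the MCM helicase onto DNA in an inactive form. Cyclin D and cyclin E kinases then release E2F transcription factors from the retinoblastoma protein, and E2F drives many of the genes named here, so that their transcripts peak around the entry to S phase. In stratified epithelium these genes mark dividing basal cells and are shut off as keratinocytes leave the cell cycle to differentiate. In bulk RNA a larger share of cells in S phase and more of these transcripts per cell cannot be told apart.

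Most of the replication genes had higher values in the knockdown libraries, by small amounts, and none passed the test over all genes. On the log2(FPKM + 1) scale 46 of 53 members lay above 0 (41 with median centring and 40 with quantile normalization) and 7 below, with a median of 0.24; over all 12411 tested genes 61.4% lay above 0 and the median was 0.09. Limma called 0 members at an adjusted p under 0.05, where 0.25% of tested genes passed (14 higher and 17 lower, or 17 and 40 with quantile normalization). The smallest adjusted p among members was 0.0655. At an unadjusted p under 0.05, 20 members (37.7%) were higher, against a background of 14.8% of tested genes, and 1 member was lower, against a background of 8%. The members had a median level of 13.9 FPKM, against 5.4 FPKM over all tested genes. With a stricter filter of 5 FPKM, 17 of 49 members (34.7%) were higher, against 20.0% of 6971 tested genes. Both knockdown libraries exceeded both control libraries for 35 members (66.0%), against 35.6% of tested genes, and both lay below for 3 members, against 19.2%. For the other 15 members the groups overlapped.

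The count of 20 was lower on other scales and with 1 library left out, and so was the share over all genes. With median centring 9 members (17.0%) were higher at an unadjusted p under 0.05, against 9.54% of tested genes, and with quantile normalization 15 were (28.3%), against 10.8%. It was 10 (18.9%) without control replicate 1, against 12.05% of tested genes, and 13 (24.5%) without control replicate 2, against 9.27%. It was 11 (20.8%) without knockdown replicate 1, against 7.78%, and 10 (18.9%) without knockdown replicate 2, against 8.97%. Summed over the members, the level was 1317 and 1362 FPKM in control and 1493 and 1574 FPKM in knockdown libraries. As a share of the FPKM of nuclear genes alone, which leaves the mitochondrial transcripts aside, it was 0.701% and 0.693% in control and 0.765% and 0.782% in knockdown libraries, so the knockdown libraries were also above the control libraries on that scale.

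**Figure D1:**
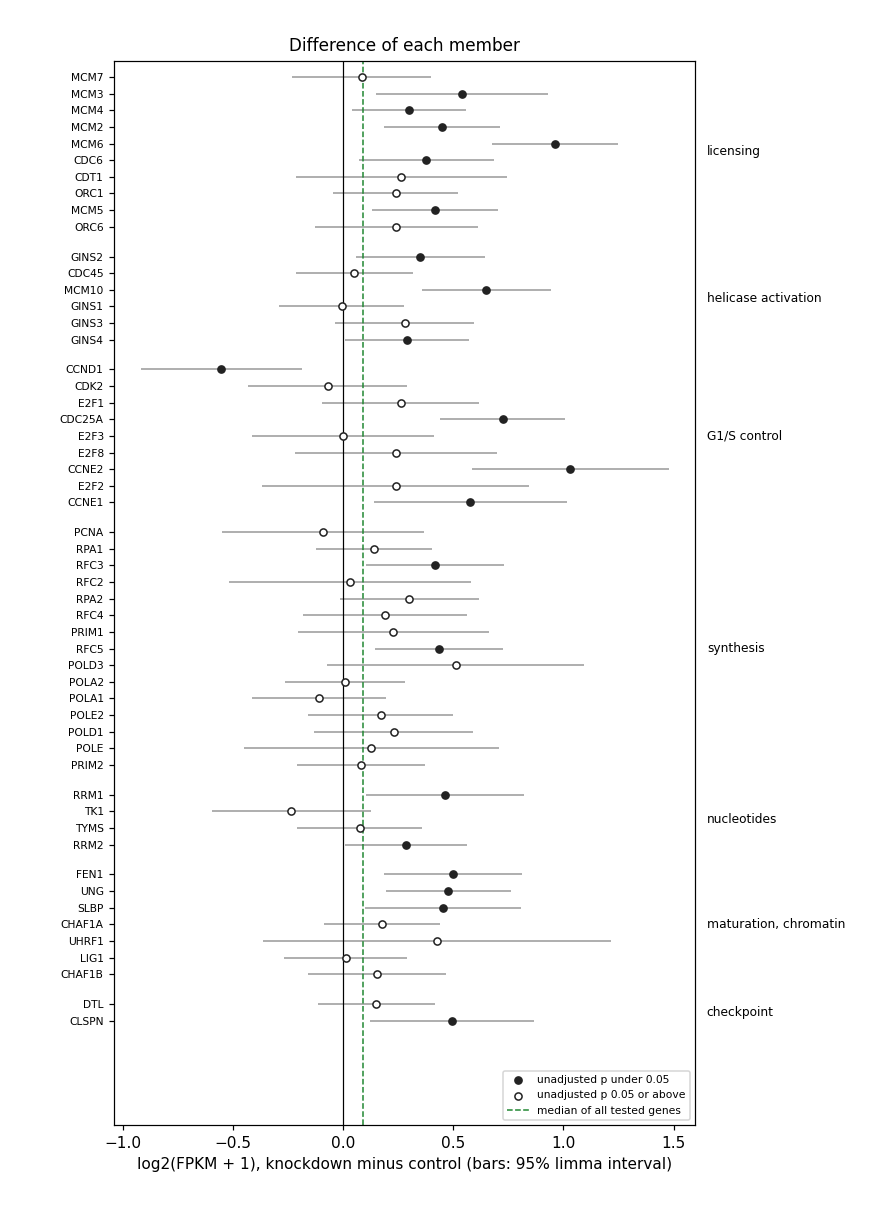
Difference of each member between knockdown and control on the log2(FPKM + 1) scale (x axis), with limma's 95% interval as bars; rows are the 53 members by role, filled points had an unadjusted p under 0.05, and the dashed line is the median of all tested genes, 0.09. Of the members 46 sit above 0 (41 with median centring, 40 with quantile normalization), and CCND1 is the 1 filled point below.

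**Figure D2:**
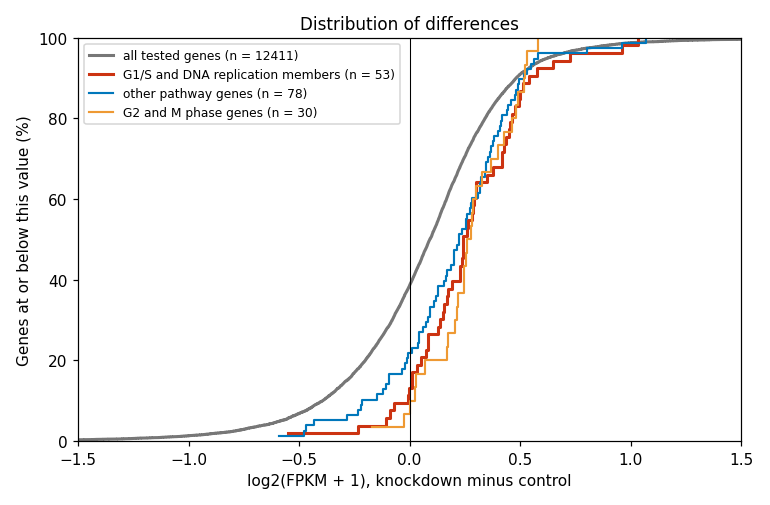
Cumulative share of genes (y axis, percent) at or below each log2(FPKM + 1) difference, knockdown minus control (x axis, drawn from -1.5 to 1.5), for all 12411 tested genes, the 53 members, 78 other pathway genes and 30 genes of G2 and M phase. The curves of the 3 gene lists lie to the right of that of all tested genes over most of the range, with medians of 0.24, 0.22 and 0.27 against 0.09.

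The 10 origin licensing genes all lay above 0, under every scaling tried, with a median of 0.34 (0.26 with median centring, 0.21 with quantile normalization). At an unadjusted p under 0.05, 6 of them (60%) were higher, against 14.8% of tested genes, and 4 were not. With median centring 3 were (30%, against 9.54% of tested genes), and with quantile normalization 4 were (40%, against 10.8%). MCM2 to MCM7 form the ring-shaped helicase that opens DNA ahead of the fork. MCM6 had the largest difference of the 6 subunits: 24.02 and 25.29 FPKM in control and 46.74 and 51.26 FPKM in knockdown libraries. The groups were well apart and the mean was 1.99-fold higher, a log2 difference of 0.96 (SE 0.110, 95% interval 0.67 to 1.25, limma adjusted p = 0.0655). MCM6 lies on the minus strand of chromosome 2, from 135839626 to 135876426 (GENCODE 29, GRCh38).

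The other subunits differed by less. MCM3 stood at 53.57 and 54.22 FPKM in control and 70.10 and 88.66 FPKM in knockdown libraries, a log2 difference of 0.54 (SE 0.148, limma adjusted p = 0.144). MCM2 stood at 35.39 and 35.71 against 49.80 and 48.05 FPKM, a log2 difference of 0.45 (limma adjusted p = 0.113). In both genes every knockdown value exceeded every control value, and the control values were nearly equal. MCM5 stood at 10.33 and 9.54 against 14.00 and 13.20 FPKM (log2 difference 0.42), and MCM4 at 40.16 and 39.21 against 48.93 and 49.19 FPKM (0.30). MCM7, the most abundant subunit, was at 140.98 and 154.09 against 150.36 and 162.47 FPKM, so its groups overlapped, and the interval of its log2 difference ran from -0.23 to 0.40. MCM6 made up 7.89% and 7.95% of the summed FPKM of the 6 subunits in control and 12.3% and 12.4% in knockdown libraries, a share that no scaling factor per library can alter.

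These 4 promoters are shown as examples of the E2F sites that many members carry. In these stretches, from RefSeq (GRCh38.p14), from 250 bases before to 50 bases after the gene start, capitals mark matches on either strand to the E2F site written as TTTCCCGC, TTTGGCGC, TTTCGCGC or TTTGCCGC. MCM6 (chr2:135876394-135876693, minus strand), CDC25A (chr3:48188368-48188667, minus strand) and MCM2 (chr3:127598161-127598460, plus strand) had the smallest p among members with such a match, and MCM7 (chr7:100101348-100101647, minus strand) is set beside them as the most abundant subunit.
MCM6: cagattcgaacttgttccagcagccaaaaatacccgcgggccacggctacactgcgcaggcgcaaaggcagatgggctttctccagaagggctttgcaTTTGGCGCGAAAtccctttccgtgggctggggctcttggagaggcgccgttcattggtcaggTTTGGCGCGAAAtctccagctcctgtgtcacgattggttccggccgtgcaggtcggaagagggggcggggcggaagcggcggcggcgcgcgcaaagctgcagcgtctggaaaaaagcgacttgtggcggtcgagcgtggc
CDC25A: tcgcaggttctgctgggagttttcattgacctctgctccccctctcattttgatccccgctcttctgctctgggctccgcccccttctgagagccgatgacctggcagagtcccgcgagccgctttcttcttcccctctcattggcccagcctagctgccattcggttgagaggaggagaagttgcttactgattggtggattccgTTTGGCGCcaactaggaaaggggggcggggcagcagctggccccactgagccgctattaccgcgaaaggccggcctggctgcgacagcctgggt
MCM2: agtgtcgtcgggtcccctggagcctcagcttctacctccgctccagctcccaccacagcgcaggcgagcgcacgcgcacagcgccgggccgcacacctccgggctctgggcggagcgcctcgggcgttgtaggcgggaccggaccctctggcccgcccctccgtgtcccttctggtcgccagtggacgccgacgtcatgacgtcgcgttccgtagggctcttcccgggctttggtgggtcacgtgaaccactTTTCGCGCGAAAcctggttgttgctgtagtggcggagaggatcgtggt
MCM7: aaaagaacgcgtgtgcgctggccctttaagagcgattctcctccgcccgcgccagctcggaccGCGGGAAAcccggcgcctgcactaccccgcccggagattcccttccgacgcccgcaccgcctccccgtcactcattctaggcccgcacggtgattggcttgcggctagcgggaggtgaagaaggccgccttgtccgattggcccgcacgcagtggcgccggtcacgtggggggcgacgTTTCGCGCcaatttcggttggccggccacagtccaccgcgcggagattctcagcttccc
MCM6 holds 4 matches in 2 overlapping pairs, each reading as an E2F site on both strands, from -152 to -141 and from -90 to -79, with the start at 0. MCM2 holds 1 such pair, from 2 to 13, just inside the transcribed part. CDC25A has 1 match, from -44 to -37. MCM7 has 2 separate matches, from -187 to -180 and from -9 to -2, and a difference near 0 in these libraries.

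Such a match was present in 24 of the 44 members with a promoter in the table (54.5%), against 493 of 8542 tested genes with one (5.77%) and 3.31% of all 35116 promoters. The CCAAT box (CCAAT, either strand) was present in 26 members (59.1%), against 37.7% of tested genes. The cell cycle homology region of G2 and M phase genes (TTTGAA or TTCGAA, either strand) was present in 3 members (6.82%), against 11.1%. Median GC content of the windows was 65.8% for members and 65.3% for tested genes. The contrast between members with and without the E2F match was not tested: the median log2 difference was 0.25 for the 24 with a match and 0.23 for the 20 without. These are matches of letters, and no binding was measured.

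Of the 4 loaders of the helicase, CDC6 had an unadjusted p under 0.05 and the others did not. CDC6, the ATPase that loads MCM onto DNA, stood at 19.77 and 19.87 FPKM in control and 24.30 and 27.97 FPKM in knockdown libraries, with no overlap (log2 difference 0.38, SE 0.117, limma adjusted p = 0.165). CDT1, its partner in loading, was at 13.17 and 12.32 against 18.36 and 13.08 FPKM, so the groups overlapped. ORC1, the origin recognition subunit that comes and goes with the cycle, was at 10.74 and 11.80 against 13.42 and 13.52 FPKM, and ORC6 at 8.94 and 8.35 against 11.58 and 9.33 FPKM. For both, the knockdown values lay above the control values by less than the test could call (limma adjusted p = 0.274 and 0.372).

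Of the 6 helicase activation genes 5 lay above 0 (4 with median centring or quantile normalization). At an unadjusted p under 0.05, 3 were higher (50%, against 14.8% of tested genes). With median centring 1 was (16.7%, against 9.54% of tested genes), and with quantile normalization 1 was (16.7%, against 10.8%). MCM10, which triggers unwinding by the assembled helicase, stood at 10.26 and 9.30 FPKM in control and 15.43 and 16.38 FPKM in knockdown libraries, a 1.63-fold higher mean with no overlap (log2 difference 0.65, SE 0.112, limma adjusted p = 0.0909). It lies on the plus strand of chromosome 10, from 13161554 to 13211104. CDC45, which joins MCM and GINS in the active helicase, was at 12.60 and 12.66 against 13.39 and 12.86 FPKM. That is a log2 difference of 0.05, whose sign turned with median centring or quantile normalization, with an interval from -0.22 to 0.32.

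The 4 subunits of the GINS complex differed among themselves. GINS2 was at 14.36 and 16.04 FPKM in control and 19.32 and 19.97 FPKM in knockdown libraries (log2 difference 0.35, limma adjusted p = 0.170). GINS3 was at 6.68 and 7.59 against 8.54 and 9.20 FPKM, and GINS4 at 7.01 and 7.01 against 8.51 and 9.10 FPKM. These 3 showed no overlap between groups, whereas GINS1, at 8.56 and 9.02 against 9 and 8.49 FPKM, had a log2 difference of -0.01 (interval -0.29 to 0.28).

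Among the 9 genes of G1/S control CCND1 was lower and both cyclins E were higher in knockdown libraries, none at an adjusted p under 0.05. CCND1, cyclin D1, which starts the G1 kinase cascade, was the only member with an unadjusted p under 0.05 and a lower value: 126.27 and 114.71 FPKM in control and 89.31 and 74.82 FPKM in knockdown libraries. Its mean was 1.47-fold lower, a log2 difference of -0.55 (SE 0.139, interval -0.92 to -0.19, limma adjusted p = 0.126). CCNE2, a cyclin E, stood at 2.11 and 1.56 against 4.28 and 5.30 FPKM, a 2.61-fold higher mean and a log2 difference of 1.03 (SE 0.170, adjusted p = 0.0866). CCNE1, the other cyclin E, stood at 1.24 and 1.06 against 2.53 and 1.91 FPKM, a 1.93-fold higher mean and a log2 difference of 0.58 (adjusted p = 0.151). None of the 3 cyclins had overlapping groups. The ratio of CCND1 to summed cyclin E FPKM was 37.7 and 43.8 in control and 13.1 and 10.4 in knockdown libraries. The other cyclins D, which are not members, did not fall with CCND1. CCND2 was at 21.68 and 20.17 against 29.77 and 25.38 FPKM, without overlap (log2 difference 0.38, limma adjusted p = 0.182). CCND3 was at 2.97 and 2.75 against 2.69 and 2.93 FPKM, with overlapping groups (-0.02).

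Low level and overlap bear on the cyclin E values. By mean FPKM over the 4 libraries both cyclins E are among the 3 lowest members, with E2F2, though in knockdown libraries CLSPN had a lower mean than CCNE2, and the added 1 FPKM makes their log2 differences smaller than their ratios. CCNE2 shares 37.0% of its exon bases with INTS8 on the opposite strand, and whether reads were counted by strand is not given in the sources used here. INTS8 was listed at 5.67 and 5.87 FPKM in control and 6.73 and 6.72 FPKM in knockdown libraries; its part in the CCNE2 values was not tested.

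CDC25A, the phosphatase that activates CDK2, was also higher in both knockdown libraries. It stood at 5.85 and 6.32 FPKM in control and 10.50 and 10.90 FPKM in knockdown libraries, a 1.76-fold higher mean with a narrow spread (log2 difference 0.72, SE 0.109, interval 0.44 to 1.01, limma adjusted p = 0.0782). The gene lies on the minus strand of chromosome 3, from 48157146 to 48188402. CDK2 itself, the kinase bound by cyclin E, was at 15.49 and 12.96 against 14.31 and 12.66 FPKM, with overlapping groups and a log2 difference of -0.07 (interval -0.43 to 0.29).

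The E2F factors overlapped between groups, apart from E2F1. E2F1, an activator, stood at 12.58 and 11.74 FPKM in control and 16.31 and 13.36 FPKM in knockdown libraries (log2 difference 0.26, limma adjusted p = 0.329), without overlap. E2F2 was at 3.25 and 2.04 against 3.82 and 2.73 FPKM, E2F3 at 9.25 and 7.39 against 9.01 and 7.57 FPKM, and E2F8, a repressor that closes the E2F wave, at 6.19 and 4.69 against 7.27 and 5.90 FPKM. For all 4 factors replicate 2 was below replicate 1 in both groups.

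**Figure D3:**
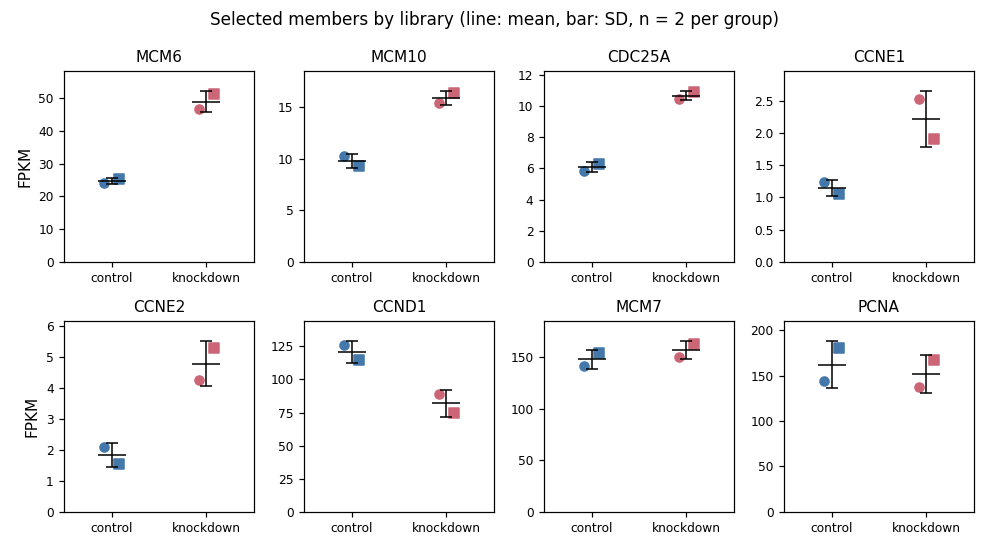
FPKM (y axes, from 0) of 8 members in each library, with the mean as a line and the SD as a bar (n = 2 per group); circles are replicate 1 and squares replicate 2. Knockdown points lie above the control points for MCM6, MCM10, CDC25A, CCNE1 and CCNE2, below them for CCND1, and among them for MCM7 and PCNA.

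Among the 15 genes of DNA synthesis 13 lay above 0 (10 with quantile normalization), and 2 had an unadjusted p under 0.05 (13.3%, against 14.8% of tested genes). With median centring 0 did, against 9.54% of tested genes, and with quantile normalization 2 did (13.3%, against 10.8%). Their median log2 difference was 0.17, and it was 0.07 with quantile normalization and 0.10 without knockdown replicate 2. Those with an unadjusted p under 0.05 in the main fit were RFC5 and RFC3, subunits of the loader of the sliding clamp. RFC5 stood at 12.31 and 13.44 FPKM in control and 17.18 and 18.33 FPKM in knockdown libraries (log2 difference 0.44, SE 0.110, limma adjusted p = 0.127), and RFC3 at 25.67 and 29.66 against 36.37 and 38.06 FPKM (0.42, SE 0.120, adjusted p = 0.150). RFC4 was at 18.22 and 21.97 against 21.52 and 24.49 FPKM, and RFC2 at 34.91 and 26.21 against 26.85 and 35.76 FPKM. The last 2 overlapped between groups, and the contrast between loader subunits was not tested. PCNA, the clamp itself and the most abundant member, was at 144.05 and 180.03 against 137.29 and 166.54 FPKM, a log2 difference of -0.09 (interval -0.55 to 0.37).

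The polymerase subunits had no unadjusted p under 0.05. POLA1, the catalytic subunit of the primase-polymerase, was at 11.95 and 10.46 FPKM in control and 10.29 and 10.30 FPKM in knockdown libraries (log2 difference -0.11, limma adjusted p = 0.606). POLE, the leading-strand polymerase, was at 7.29 and 4.83 against 7.45 and 5.83 FPKM, and POLE2, its second subunit, at 7.02 and 6.77 against 7.26 and 8.56 FPKM. POLD1, the lagging-strand polymerase, was at 6.56 and 5.86 against 8.16 and 6.78 FPKM. POLD3, an accessory subunit, was at 9.77 and 15.35 against 17.29 and 18.57 FPKM; control replicate 1 stood low, and the interval of the log2 difference ran from -0.07 to 1.10. Of these 5 genes POLE overlapped between groups. POLE2, POLD1 and POLD3 had both knockdown libraries above both control libraries, as did 35.6% of tested genes. POLA1 had both below, as did 19.2% of tested genes.

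PRIM1 and POLA2 share exon bases with other gene models on their strand, and how reads were assigned between them is not given in the sources used here. PRIM1, the catalytic primase subunit (minus strand of chromosome 12, 56731596 to 56752373), was at 12.99 and 15.91 FPKM in control and 15.24 and 18.97 FPKM in knockdown libraries, a log2 difference of 0.23 (limma adjusted p = 0.462). AC117378.1 (ENSG00000285625), a gene model at 56714612 to 56741535 on the same strand, covers 14.9% of the exon bases of PRIM1. It was listed at 11.68 and 7.02 FPKM in control and at 0 in both knockdown libraries, and it fell by the test over all genes (adjusted p = 0.0418). With its values added to those of PRIM1, an alternative chosen after the values were seen, the sum was 24.67 and 22.93 against 15.24 and 18.97 FPKM, and the log2 difference turned to -0.46 (SE 0.142, adjusted p = 0.165). The direction for PRIM1 thus differs between the gene model alone and the sum.

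POLA2, the regulatory subunit beside POLA1, was at 12.16 and 12.25 FPKM in control and 12.69 and 11.89 FPKM in knockdown libraries, a log2 difference of 0.01 whose sign turned with median centring, quantile normalization and nuclear rescaling. The read-through model AP000944.2, which covers 35.1% of its exon bases, was at 0.04 and 0.01 against 0.62 and 3.30 FPKM, and with that added the difference was 0.20 (limma adjusted p = 0.364). PRIM2, the larger primase subunit, was at 5.12 and 5.47 against 5.59 and 5.73 FPKM (log2 difference 0.08, or -0.01 with quantile normalization). RPA1 and RPA2, which coat single-stranded DNA, were at 44.59 and 46.12 against 49.91 and 50.19 FPKM and at 20.42 and 21.56 against 24.28 and 28.02 FPKM. Both RPA subunits separated the groups, with limma adjusted p of 0.459 and 0.232.

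Of the 4 genes of nucleotide supply 3 lay above 0 and 1 below. RRM1, the large subunit of ribonucleotide reductase, was at 51.18 and 57.37 FPKM in control and 69.10 and 81.62 FPKM in knockdown libraries (log2 difference 0.46, SE 0.137, limma adjusted p = 0.154). RRM2, the small subunit that limits the enzyme in S phase, was at 7.88 and 7.44 against 9.48 and 9.66 FPKM (0.29, SE 0.106, adjusted p = 0.207). The ratio of RRM1 to RRM2 FPKM lay between 6.49 and 8.45 in the 4 libraries, with overlapping groups. RRM2 shares 20.2% of its exon bases with AC007240.1 on the same strand, which was not analysed here.

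TYMS, thymidylate synthase, was at 30.49 and 33.80 FPKM in control and 33.89 and 33.86 FPKM in knockdown libraries, a log2 difference of 0.08 that turned below 0 with median centring or quantile normalization. Of its exon bases 39.2% overlap ENOSF1 on the opposite strand. TK1, thymidine kinase of the salvage route, was at 63.83 and 52.21 against 49.80 and 48.07 FPKM, with both knockdown libraries below (log2 difference -0.23, SE 0.137, limma adjusted p = 0.374). Neither TYMS nor TK1 had an unadjusted p under 0.05.

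All 7 genes of strand maturation, base excision and chromatin lay above 0, but LIG1 turned below 0 with median centring, quantile normalization and nuclear rescaling. At an unadjusted p under 0.05, 3 were higher (42.9%, against 14.8% of tested genes). With median centring 1 was (14.3%, against 9.54% of tested genes), and with quantile normalization 3 were (42.9%, against 10.8%). The median of 0.43 was the value of UHRF1, and it was 0.15 without control replicate 2 and 0.18 without knockdown replicate 2. FEN1, the nuclease that trims Okazaki fragments, was at 65.67 and 74.11 FPKM in control and 96.41 and 101.68 FPKM in knockdown libraries, a 1.42-fold higher mean (log2 difference 0.50, SE 0.119, limma adjusted p = 0.118). UNG, the glycosylase that removes uracil from DNA, was at 27.77 and 30.73 against 40.94 and 41.22 FPKM (0.48, SE 0.109, adjusted p = 0.115). SLBP, which binds the stem-loop of histone mRNA, was at 26.16 and 32.01 against 40.25 and 39.79 FPKM (0.45, SE 0.135, adjusted p = 0.155). The groups were apart in these 3 genes. LIG1, the ligase that seals the fragments FEN1 has trimmed, was at 11.34 and 10.82 against 10.80 and 11.56 FPKM, a log2 difference of 0.01 (interval -0.27 to 0.29).

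CHAF1A and CHAF1B, subunits of the factor that places new histones at the fork, were at 24.67 and 23.66 against 27.09 and 27.73 FPKM and at 6.08 and 5.44 against 6.26 and 6.79 FPKM. Both separated the groups by a small step (log2 differences 0.18 and 0.16). UHRF1, which brings DNA methyltransferase to new DNA, was at 12.55 and 7.28 against 10.96 and 15.91 FPKM, and its spread within groups gave it the widest interval of all members, from -0.36 to 1.21.

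Of the 2 checkpoint and licensing control genes, CLSPN, the claspin adaptor of the replication checkpoint, was at 2.97 and 2.41 FPKM in control and 4.42 and 3.96 FPKM in knockdown libraries (1.56-fold, log2 difference 0.49, SE 0.142, limma adjusted p = 0.150). DTL, the ubiquitin ligase adaptor that destroys CDT1 in S phase, was at 15.03 and 14.55 against 16.88 and 16.21 FPKM (log2 difference 0.15, SE 0.102, adjusted p = 0.429). Both separated the groups.

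**Figure D4:**
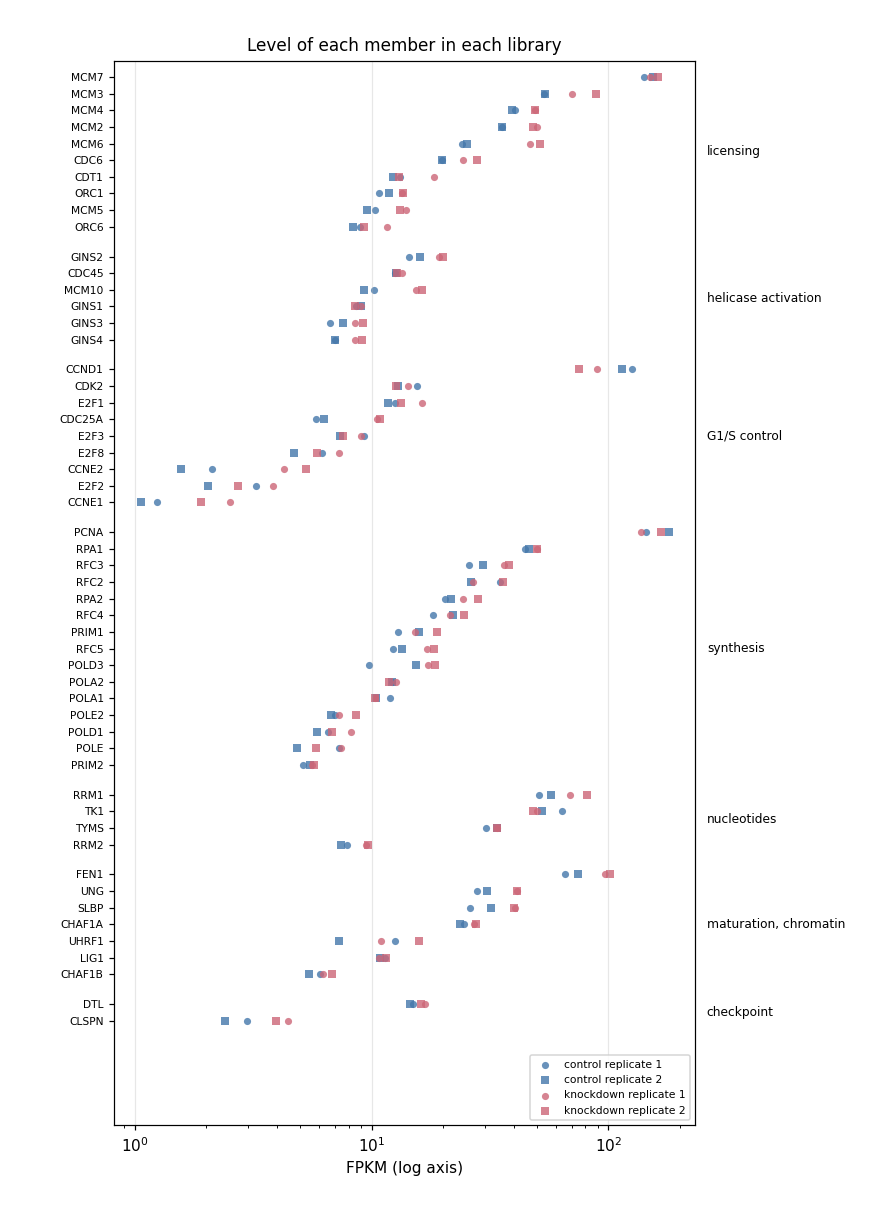
FPKM of each member in each of the 4 libraries (log x axis), with rows grouped by role and sorted by mean level. PCNA and MCM7 reach the highest levels and CCNE1 the lowest, and blue control points lie left of red knockdown points in 35 of 53 rows.

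Levels, compared per transcript length as FPKM, spanned 93.2-fold between PCNA and CCNE1. The order by mean over the 4 libraries began with PCNA, MCM7, CCND1, FEN1 and MCM3. PCNA and MCM7 overlapped in their library values, so their order was not fixed, while CCND1 lay below both in every library. CCND1 was above FEN1 in both control libraries and below it in both knockdown libraries, and TK1 had a higher control mean than MCM3. The lowest were CCNE1, E2F2, CCNE2, CLSPN and PRIM2, all but PRIM2 below 5 FPKM in at least 3 libraries. Subunits of 1 complex were not level: MCM7 exceeded MCM5 by 13.6-fold and 16.2-fold in control and 10.7-fold and 12.3-fold in knockdown libraries, and only annotation and read assignment as used in the table stand behind such ratios between genes.

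Of the other genes of the same pathway none passed the threshold over all genes. Of 81 listed, 80 symbols were in the table and 78 passed the filter; 61 lay above 0 (55 with median centring, 52 with quantile normalization) with a median of 0.22, and 20 were higher and 2 lower at an unadjusted p under 0.05 (25.6% and 2.56%, against 14.8% and 8% of tested genes). With quantile normalization 10 were higher (12.8%, against 10.8% of tested genes) and 7 lower. In G1/S control, TFDP1, the partner of E2F on DNA, was at 31.01 and 40.65 FPKM in control and 76.01 and 64.71 FPKM in knockdown libraries (log2 difference 0.96, SE 0.175, limma adjusted p = 0.0959), and E2F7, a repressor, at 5.69 and 4.45 against 8.69 and 7.18 FPKM (0.56, adjusted p = 0.152). CDKN2B, the cyclin D kinase inhibitor p15, was lower, at 9.27 and 9.29 against 6.42 and 5.27 FPKM (-0.59, SE 0.131, adjusted p = 0.112).

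In licensing and firing, TOPBP1, which helps to assemble the active helicase, was at 16.45 and 13.96 FPKM in control and 23.35 and 23.04 FPKM in knockdown libraries (log2 difference 0.58, limma adjusted p = 0.109), and ORC5 at 5.08 and 5.33 against 7.34 and 7.73 FPKM (0.46). DBF4, the activator of the firing kinase CDC7, went the other way, at 6.78 and 7.09 against 4.49 and 5.00 FPKM (-0.47, SE 0.116, adjusted p = 0.124). At the fork, TIPIN was at 12.23 and 13.51 against 17.71 and 20.94 FPKM (0.55), DNA2 at 5.51 and 5.42 against 7.20 and 8.03 FPKM (0.41) and DSCC1 at 11.38 and 12.40 against 15.31 and 18.84 FPKM (0.48). These 3 act in fork protection, flap processing and clamp loading. None had overlapping groups, but they were named for a small p, which favours such genes. Of the 14 fork genes tested, both knockdown libraries lay above both control libraries for 9, against 35.6% of tested genes. Both lay below for 3, against 19.2% of tested genes.

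Among nucleotide genes, DCK, deoxycytidine kinase, was at 6.71 and 7.27 FPKM in control and 9.83 and 10.70 FPKM in knockdown libraries (log2 difference 0.50, limma adjusted p = 0.116), DTYMK, thymidylate kinase, was at 10 and 11.73 against 13.87 and 13.68 FPKM (0.32), and RRM2B, the other small subunit of ribonucleotide reductase, at 3.38 and 2.61 against 4.25 and 3.91 FPKM (0.35). Among chromatin and checkpoint genes, BRCA1, of homologous recombination, was at 5.70 and 4.72 against 9 and 10.64 FPKM (0.80, SE 0.147, adjusted p = 0.0959). DNMT1, the maintenance DNA methyltransferase, was at 16.82 and 15.32 against 22.52 and 21.94 FPKM (0.45). In each of these 5 genes both knockdown libraries lay above both control libraries, but they were named for a small p, which favours such genes. Over the whole lists this held for 5 of 10 nucleotide genes and 11 of 13 chromatin and checkpoint genes, against 35.6% of tested genes.

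The shift was not shown to be particular to G1/S and replication. The 30 genes of G2 and M phase, set beside them as the list most like it, had a median of 0.27. Of these genes 28 lay above 0 (24 with median centring or quantile normalization). At an unadjusted p under 0.05, 11 were higher (36.7%, against 14.8% of tested genes) and 0 lower. With median centring 5 were higher (16.7%, against 9.54% of tested genes), and with quantile normalization 9 were (30%, against 10.8%). Limma called 0 of the 30 genes at an adjusted p under 0.05. MKI67, a proliferation marker of all cycling phases, was at 72.73 and 51.22 FPKM in control and 71.69 and 65.79 FPKM in knockdown libraries, with overlapping groups (log2 difference 0.17, SE 0.195, adjusted p = 0.636). The difference between the lists was not tested.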

How the data were processed

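FPKM values for 4 libraries, 2 per group, were taken as the authors deposited them, with 2 decimals. The submitters' processing notes list HISAT2 2.0.4, cutadapt 1.9, edgeR, DESeq2 and StringTie 1.3.4d without saying what each did; for the build, annotation and strand setting, nothing is given in the sources used here. The authors' deposited ratio column and its log2 were above 0 (log2) for 46 members and below for 7, the same split as in the fit. There were 0 columns without a sample.

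A gene was tested if its mean reached 1 FPKM in either group, which left 12411 genes, all 53 members among them. Values were taken as log2(FPKM + 1), and the groups were compared by a two-sided limma test (version 3.58.1, R 4.3.3) with no covariate, a variance trend and no robust weighting. P-values were adjusted by Benjamini and Hochberg across all tested genes, with a threshold of 0.05. Log2 differences understate ratios of low genes. An exact permutation test of 2 against 2 libraries cannot go below 0.333. Intervals are 95% limma intervals, unadjusted. The fit was tested on simulated data whose changes were larger than the members' median difference, so that test does not cover differences of that size. Read depth is unknown: for genes of 1 transcript at most 39.5% of low values fell within 0.1 of whole reads at any depth tried, so no count test was run.

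Members and gene lists were chosen with earlier results of these data known. Values are given for every member, for up to 3 other pathway genes with the smallest p in each list (1 of which is not reported here), for WFDC21P and for MKI67; overlapping genes, MCM5 and MCM7 ratios, MYC and 4 kinase inhibitors (CDKN1A, CDKN2A, CDKN2C and CDKN2D) were chosen after their values were seen. Positions, transcript GC content and exon overlaps came from GENCODE 29 (GRCh38), where 58552 of 58825 gene IDs were found, and promoters from RefSeq (GRCh38.p14). Of the members, 7 share exon bases with another gene on the same strand and 19 on the opposite strand.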

Additional observations from a re-analysis of the deposited data

How the results depend on the processing

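Over 15 alternative settings limma called 0 members and 0 other pathway genes at an adjusted p under 0.05, and the smallest adjusted p of any member was 0.0501, with the stricter filter of 5 FPKM; there 49 members were tested and 58 of 6971 genes passed. With no filter, with the replicate block, or with any 1 library left out, no gene of the table passed, so those settings could call no member. Replicate numbers are shared by the groups but no label pairs them: deviations of same-numbered libraries correlated at a Pearson r of 0.124 across tested genes, which are not independent replicates. With the replicate block 23 members were higher at an unadjusted p under 0.05 (43.4%) and 1 was lower, against 20.1% and 10.4% of all tested genes, and 5 other pathway genes were lower.

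The members' median log2 difference of 0.24 became 0.28 with a pseudocount of 0.1, 0.16 with median centring, 0.14 with quantile normalization and 0.19 with GC content and length removed, with or without the replicate block; leaving out single libraries gave 0.22 to 0.29. The count of higher members at an unadjusted p under 0.05 was 9 with median centring and 10 to 13 without single libraries. The count of lower members was 2 with GC content and length removed, against 11.9% of tested genes (13.87% with the replicate block, where it was also 2). With overlapping partners summed it was 2, against 8.01% of tested genes. For other pathway genes the median of 0.22 became 0.26 with the pseudocount of 0.1, 0.15 with median centring, 0.13 with quantile normalization, 0.13 with GC content and length removed, with or without the replicate block, and 0.18 to 0.25 without single libraries. Their count of higher genes became 11 with median centring, 10 with quantile normalization, 12 with nuclear genes rescaled and 9 to 16 without single libraries. Their count of lower genes became 7 with median centring or quantile normalization (8.97%, against 11.26% and 11.35% of tested genes). It was 6 with GC content and length removed (7.69%, against 11.9%) and 7 with that and the replicate block (8.97%, against 13.87%).

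Signs held for 40 of 53 members in every setting. The log2 differences that turned were CDC45 at -0.0287, POLA2 at -0.0713, RFC2 at -0.0463, TYMS at -0.0047 and LIG1 at -0.0684 with median centring. With quantile normalization they were CDC45 at -0.0666, POLA2 at -0.11, PRIM2 at -0.00702, RFC2 at -0.0946, TYMS at -0.0568 and LIG1 at -0.11, and with nuclear genes rescaled POLA2 at -0.0339, RFC2 at -0.00896 and LIG1 at -0.0307. With GC content and length removed, with or without the replicate block, they were POLA2 at -0.0335, PRIM2 at -0.0371 and LIG1 at -0.0183. With overlapping partners summed, added after the data were seen, PRIM1 was at -0.46. Leaving out single libraries gave ranges of -0.0348 to 0.052 for POLA2, -0.0445 to 0.031 for GINS1, -0.19 to 0.0509 for CDK2, -0.0034 to 0.48 for E2F2, -0.15 to 0.14 for E2F3, -0.13 to 0.38 for POLE, -0.25 to 0.0696 for PCNA, -0.17 to 0.23 for RFC2 and -0.0335 to 0.0566 for LIG1. The causes were not tested.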

Other observations

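Replicate 2 and replicate 1 differed in the same direction in both groups for 35 of 53 members (66.0%), close to the 65.9% of all tested genes. Of these members 20 were higher in replicate 2 in both groups, PCNA, PRIM1, RFC4 and RRM1 among them, and 15 were lower, the 4 E2F factors, POLE and POLD1 among them. The balance was the other way over all 12411 tested genes, with 2980 higher and 5193 lower in replicate 2 in both groups. Across the 53 members the 2 replicate differences correlated at a Pearson r of 0.245, against 0.124 across all tested genes; the genes share libraries and are not independent replicates.

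The Spearman rho between transcript GC content and log2 difference was -0.12 across the members and -0.22 across all tested genes, and median GC content was 48.7% and 47.9%. These are descriptions over genes of the same 4 libraries.

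Inhibitors of the G1 kinases are given as single values. CDKN1A (p21) was at 8.27 and 7.90 FPKM in control and 6.69 and 6.25 FPKM in knockdown libraries, CDKN2A at 8.23 and 6.33 against 5.68 and 4.23 FPKM, and CDKN2C at 3.04 and 3.63 against 2.42 and 3.03 FPKM, with limma adjusted p of 0.223, 0.233 and 0.448. CDKN2D went the other way, at 2.38 and 0.44 against 3.69 and 1.01 FPKM, with overlapping groups. These were named after their values were seen.

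MYC, a driver of G1 progression, differed within groups by a larger ratio than any member: 34.31 and 1.38 FPKM in control and 11.62 and 28.26 FPKM in knockdown libraries. The source of that spread was not tested.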
